A study of Mus musculus with 10 samples.

Results

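The members are 7 genes that drive cells from G1 into S phase: the transcription factor genes Myc and Mycn, the D cyclin genes Ccnd1, Ccnd2 and Ccnd3, and the kinase genes Cdk4 and Cdk6. They were chosen by gene symbol, and all 7 were found among the 17919 genes of the deposited tables. The cells were neural stem cells taken at embryonic day 10 from the ventral midbrain of mice of the ICR strain and expanded in culture, where they were passaged every 4 days. One culture carried a lentivirus for Lin28a, an RNA-binding protein that blocks let-7 microRNA maturation, and the control a mock virus. RNA-seq covered control and Lin28a cultures at passage 1 (P1) and passage 3 (P3), which makes 4 libraries, and polysome-seq, which reads RNA carried on ribosomes, covered both cultures at P3 with 2 libraries. A further 4 small RNA libraries covered the RNA-seq groups.

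There was 1 library for each assay, virus and passage. No test was therefore run, no value has a replicate error, and "higher" and "lower" describe these libraries only. The sources used here do not name the promoter in the virus or the number of embryos. The Lin28a transcript followed the labels, at 478 and 104 FPKM in the P1 and P3 Lin28a libraries against 0.128 and 0.0620 in control. Neural stem cell genes were present in all 6 gene libraries, with 9 of 9 markers at 1 or more in each. All 6 microglial markers were under 1 in every library. Between 12028 and 12461 genes reached 1 in a library. The total depth is unknown, and steps between low values put the 4 RNA-seq libraries within 1.15 times of P1 control, by a most common ratio that only 60 to 242 low genes shared.

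Myc and Mycn are basic helix-loop-helix factors that pair with Max, bind the E box sequence CACGTG and raise genes of growth and ribosome biogenesis. D cyclins are made in response to growth signals and bind Cdk4 or Cdk6. The resulting kinase phosphorylates the retinoblastoma protein Rb, which then frees E2F factors to switch on genes of DNA replication. Mycn and Ccnd2 are known for their role in neural progenitors of the embryonic brain, and several of the 7 transcripts are known let-7 targets.

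In RNA-seq the members ranged from 3.10 to 479 FPKM. FPKM are fragments scaled to transcript length and library size, so genes can be compared. Cdk4 was highest, at 413 FPKM in P1 control, 479 in P1 Lin28a, 309 in P3 control and 351 in P3 Lin28a, above 98.4% of all genes or more. Ccnd2 came next at P1, and at P3 the D cyclins were close to each other in control. Cdk6 was the lowest member in each RNA-seq library, with 3.58 FPKM in P1 control, 3.30 in P1 Lin28a, 3.10 in P3 control and 3.68 in P3 Lin28a. Cdk4 therefore made up between 99.0% and 99.3% of the summed FPKM of the kinases in RNA-seq. Without replicates the order of close neighbours, such as Myc and Mycn in P1 control at 20.6 and 19.8 FPKM, cannot be set against a spread.

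**Figure D1:**
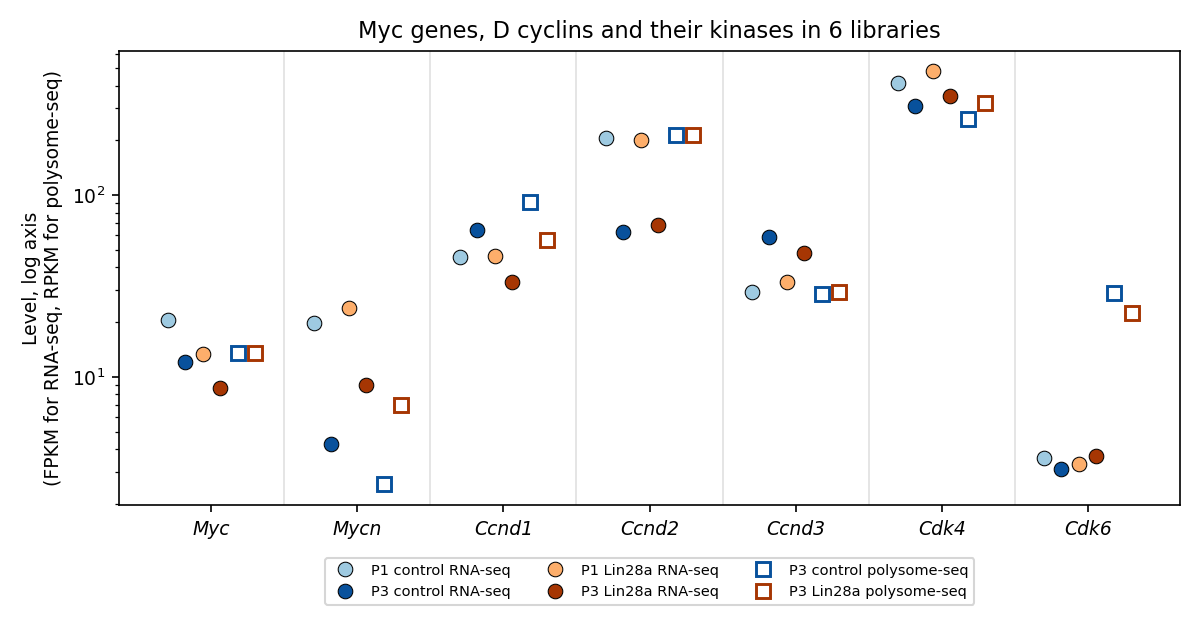
Level of each member in the 4 RNA-seq libraries (filled circles, FPKM) and the 2 polysome libraries (open squares, RPKM) on a log axis, 1 library per point. Mycn and Ccnd2 stand lower at P3 than at P1 in RNA-seq, and Cdk6 stands higher in polysome-seq than in any RNA-seq library.

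The Myc genes differed between passages and, in opposite ways, between viruses. Mycn, the family member of embryonic progenitors, was at 19.8 FPKM in P1 control, 23.8 in P1 Lin28a, 4.25 in P3 control and 9.06 in P3 Lin28a. It was lower at P3 in both cultures, and at either passage it was higher in Lin28a than in control. Differences are given as log2 ratios of values after 1 was added to each, which understates those of low genes, and a gene past 2-fold on that scale is counted as higher or lower. The P3 to P1 log2 ratio of Mycn was -1.99 in control and -1.30 in Lin28a. In control 8.14% of 13011 measured genes were lower past 2-fold and in Lin28a 4.80% of 12850, and Mycn was number 238 and number 272 from the lowest. These are bulk cultures, in which fewer cells of a type and less RNA per cell cannot be told apart.

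The Lin28a to control ratio of Mycn was 0.25 at P1 and 0.94 at P3. At P3 this stood just inside the 2-fold line, number 192 from the highest of 12716 genes, of which 1.31% were higher past 2-fold. On the raw scale 9.06 FPKM is 2.13 times 4.25, and with a pseudocount of 0.1 the ratio was 1.07, past the line. The P3 control library enters both this ratio and the passage ratio of control, so they are not independent. The polysome libraries share none of the RNA-seq libraries, and in them Mycn was at 2.56 RPKM (reads scaled in the same way) in control and 6.98 in Lin28a. Its polysome log2 ratio of 1.17 was number 68 from the highest of 12289 genes, and Mycn was the only member past 2-fold there, where 0.952% of all genes were higher.

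Myc, the broadly expressed family member, was at 20.6 FPKM in P1 control, 13.4 in P1 Lin28a, 12.1 in P3 control and 8.64 in P3 Lin28a. It was thus lower in Lin28a than in control at both passages, the reverse of Mycn. Its Lin28a to control log2 ratio was -0.59 at P1 and -0.44 at P3. Neither passed 2-fold, but few genes were as low at P1, where Myc was number 112 from the lowest of 12564. With passage Myc had ratios of -0.72 in control and -0.57 in Lin28a, smaller than those of Mycn. The polysome libraries held Myc at 13.6 RPKM (control) and 13.5 RPKM (Lin28a), a log2 ratio of 0.00.

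The shares of the pair in their sum differed as well. In P1 control Myc made up 51.0% and Mycn 49.0% of their summed FPKM, which was 40.5. In P3 control the sum was 16.4 and the share of Mycn 26.0%. In Lin28a the share of Mycn was 64.1% at P1 and 51.2% at P3, with sums of 37.2 and 17.7. The sums were thus much alike between viruses while the shares differed. In polysome-seq Myc was 84.2% of the sum in control and 66.0% in Lin28a.

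The Mycn promoter is shown because it holds 3 matches to E2F motifs in one short stretch. E2F target genes were lower at P3, as was Mycn, and a link between the motifs and its level was not tested. The sequence is from RefSeq (GRCm38.p6, minus strand, chr12:12941787-12942086) and runs from 250 bases before the gene start to 50 after it. Capitals mark the matches.
Mycn: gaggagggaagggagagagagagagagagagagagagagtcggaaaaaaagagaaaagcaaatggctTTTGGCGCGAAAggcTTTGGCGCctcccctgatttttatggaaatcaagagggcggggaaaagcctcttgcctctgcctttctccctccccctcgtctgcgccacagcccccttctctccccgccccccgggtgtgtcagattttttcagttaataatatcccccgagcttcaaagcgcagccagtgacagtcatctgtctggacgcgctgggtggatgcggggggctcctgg
The motifs searched on both strands were TTTGGCGC, TTTCCCGC and TTTCGCGC. The 3 matches begin 183, 179 and 168 bases before the start, and the first pair overlap each other on opposite strands. Of 32851 promoters of this length in the table, 606 or 1.84% held at least 1 match and 25 or 0.0761% held 2 or more. A match describes the letters only and shows no binding.

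Among the D cyclins the 3 genes differed from each other. Ccnd2, the D cyclin of neural progenitors, was at 206 FPKM in P1 control, 200 in P1 Lin28a, 62.3 in P3 control and 68.4 in P3 Lin28a. Its passage log2 ratio was -1.71 in control and -1.53 in Lin28a, number 341 and number 158 from the lowest of all measured genes. Both P3 libraries were far below both P1 libraries, while the viruses were close, with Lin28a to control ratios of -0.05 at P1 and 0.13 at P3. Polysome levels of Ccnd2 at P3 were 214 RPKM in control and 213 in Lin28a, a ratio of -0.01. With Mycn it was the member lower past 2-fold with passage in both cultures, and no member was higher past 2-fold.

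Ccnd1, a D cyclin strongly induced by growth factor and Wnt signals, was the only D cyclin whose passage ratio had opposite signs in the cultures. Its P1 levels were nearly equal, 45.8 FPKM in control and 46.2 in Lin28a. At P3 it was at 64.3 FPKM in control and 33.3 in Lin28a, so that control was above and Lin28a below the P1 level. The passage ratio was 0.48 in control and -0.46 in Lin28a, and the difference of -0.94 was number 149 from the lowest of 13138 genes, of which 0.898% were lower past 2-fold by this measure. The same 4 libraries also give the Lin28a to control ratios, so these are not independent of that difference. The Lin28a to control log2 ratio was 0.01 at P1 and -0.93 at P3. At P3 it was number 222 from the lowest of 12716 genes, and 1.34% of genes were lower past 2-fold. Polysome-seq had the same direction, with 91.3 RPKM in control and 56.8 in Lin28a, a ratio of -0.68 and number 97 from the lowest of 12289. In that comparison 0.122% of genes were lower past 2-fold.

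Ccnd3, the D cyclin found most widely across tissues, had P1 levels of 29.4 FPKM in control and 33.1 in Lin28a. It was at 58.6 FPKM in P3 control and 48.2 in P3 Lin28a, higher than at P1 in both cultures. The passage ratio was 0.97 in control, just inside 2-fold where 11.5% of genes were higher past it, and 0.53 in Lin28a. The Lin28a to control ratio was 0.16 at P1 and -0.28 at P3. Polysome levels of Ccnd3 were 28.5 RPKM in control and 29.4 in Lin28a, a ratio of 0.04 that became -0.02 when ratios were centred on the median of all genes.

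The makeup of the D cyclins differed between P1 and P3. Of the summed D cyclin FPKM, Ccnd2 made up 73.3% in P1 control and 71.6% in P1 Lin28a. In P3 control the shares were 34.7% for Ccnd1, 33.6% for Ccnd2 and 31.6% for Ccnd3. In P3 Lin28a they were 22.2%, 45.6% and 32.1%, with Ccnd2 still the largest. The summed level was 282 FPKM in P1 control, 279 in P1 Lin28a, 185 in P3 control and 150 in P3 Lin28a. In polysome-seq at P3 Ccnd2 was 64.1% of the RPKM sum in control and 71.2% in Lin28a, near the share it had in RNA-seq at P1 rather than at P3.

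**Figure D2:**
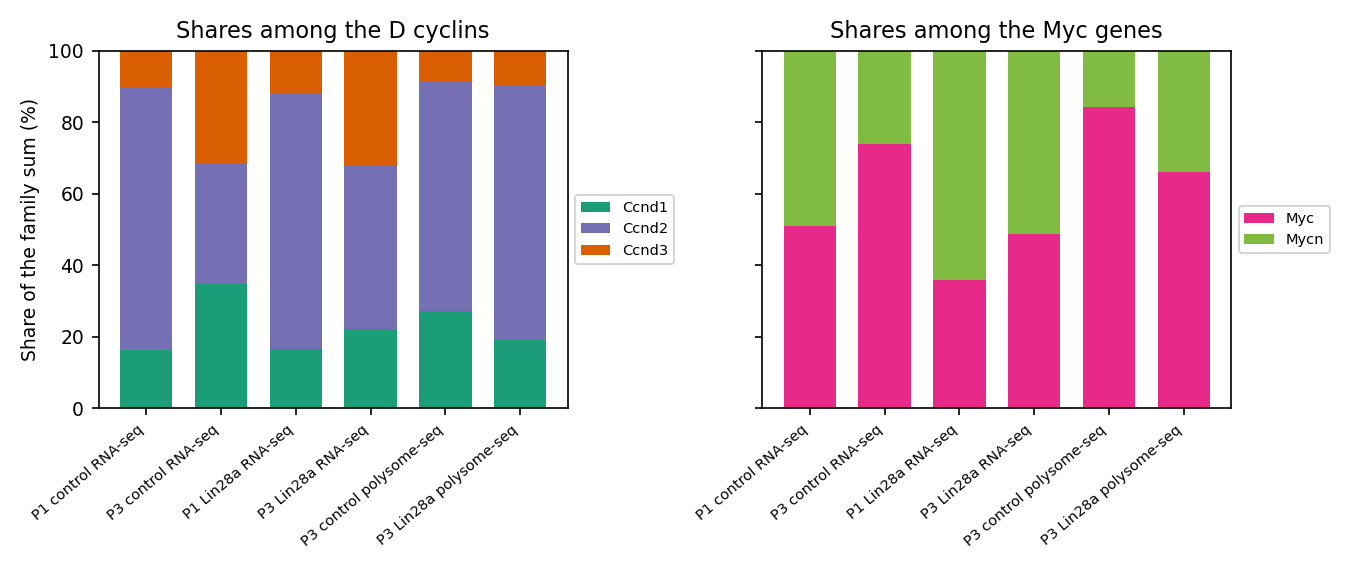
Share of each gene in the summed per-length level of the D cyclins (left) and of the Myc genes (right) in each library, in percent, FPKM for RNA-seq and RPKM for polysome-seq. Ccnd2 takes 73.3% in P1 control and 33.6% in P3 control, and the share of Mycn is larger in Lin28a than in control at each passage and in polysome-seq.

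The kinases had the smallest range of log2 levels over the 4 RNA-seq libraries, 0.63 for Cdk4 and 0.19 for Cdk6, where the other members ranged over 0.93 to 2.24. Cdk4, the main partner of the D cyclins in these libraries by level, had a passage log2 ratio of -0.42 in control and -0.45 in Lin28a. It was slightly higher in Lin28a than in control at P1 (0.21), at P3 (0.18) and in polysome-seq (0.30), where its levels were 261 RPKM in control and 321 in Lin28a. None of these passed 2-fold. Cdk6, the second D cyclin kinase, had passage ratios of -0.16 in control and 0.12 in Lin28a and Lin28a to control ratios of -0.09 at P1 and 0.19 at P3. Its polysome level was 28.8 RPKM in control and 22.4 in Lin28a, a ratio of -0.35, lower where RNA-seq was slightly higher. In polysome-seq Cdk4 made up 90.1% of the summed RPKM of the kinases in control and 93.5% in Lin28a, less than in RNA-seq.

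The Cdk4 promoter is shown because it holds 4 E boxes, the sequence bound by Myc and Mycn with Max. Cdk4, Myc and Mycn were all lower at P3. Between viruses Cdk4 was slightly higher in Lin28a (0.21 at P1 and 0.18 at P3), where Myc was lower (-0.59 and -0.44) and Mycn higher (0.25 and 0.94). A link between the E boxes and these levels was not tested, and a match shows no binding. It is from RefSeq (GRCm38.p6, plus strand, chr10:127063285-127063584), cut as above. Capitals mark the E boxes CACGTG and 1 Tcf/Lef match, ATCAAAG.
Cdk4: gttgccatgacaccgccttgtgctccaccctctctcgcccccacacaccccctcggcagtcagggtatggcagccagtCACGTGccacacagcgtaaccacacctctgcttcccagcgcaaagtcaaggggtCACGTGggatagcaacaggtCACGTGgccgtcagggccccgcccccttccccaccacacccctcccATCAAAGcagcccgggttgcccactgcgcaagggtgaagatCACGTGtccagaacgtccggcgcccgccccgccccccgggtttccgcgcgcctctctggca
The E boxes begin 172, 118, 98 and 11 bases before the gene start, and the Tcf/Lef match begins at 52. Of the 32851 promoters 7.15% held an E box, 8 promoters or 0.0244% held 4 or more, and 3.73% held the Tcf/Lef letters on either strand. An E box reads the same on both strands and was counted once, and it overlapped no other motif searched. Promoters were matched for 4 of the 7 members, Mycn, Cdk4, Cdk6 and Ccnd3, the last with 2 starts. The Cdk6 promoter held 1 E box, 220 bases before the start, and neither Ccnd3 promoter held any of the 3 kinds of motif.

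**Figure D3:**
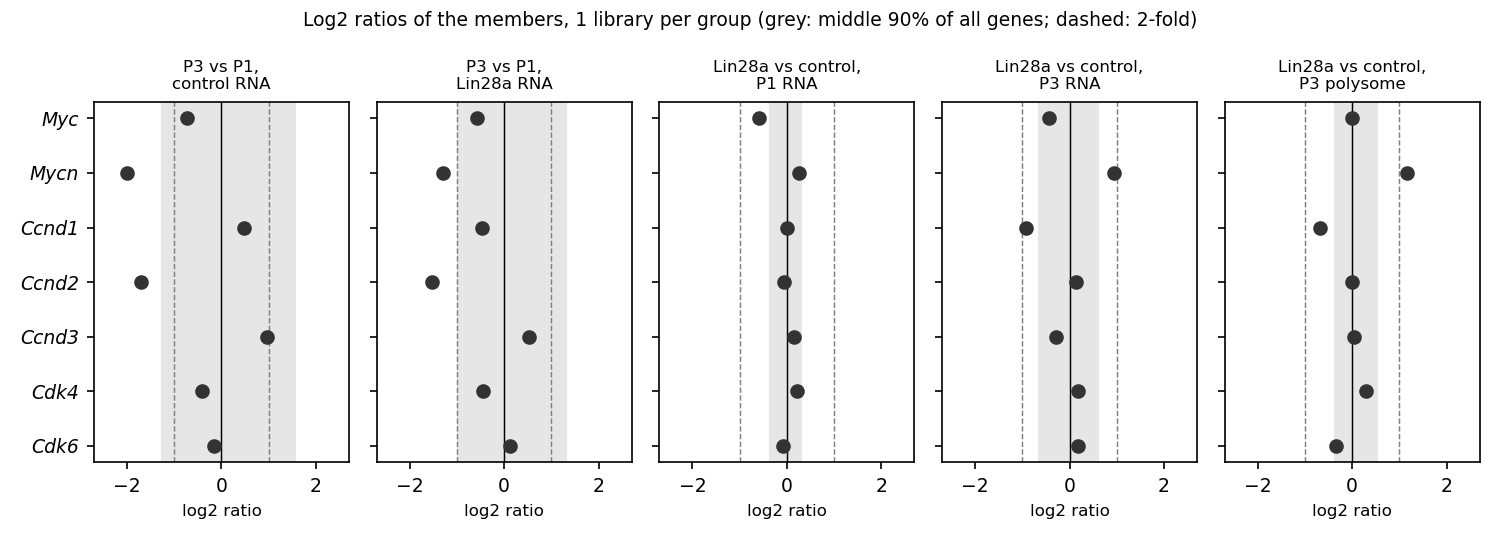
Log2 ratio of each member (points) in 5 comparisons of 1 library against 1, with a pseudocount of 1. Grey spans the middle 90% of all measured genes and dashed lines mark 2-fold. Mycn and Ccnd2 lie left of the grey span in both passage comparisons, and at P3 Mycn and Ccnd1 lie on opposite sides in RNA-seq and in polysome-seq.

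With passage in control 2 of the 7 members were lower past 2-fold and 0 higher, with a member median of -0.42 against 0.00 over all genes, of which 19.6% were past 2-fold either way. In Lin28a the counts were again 2 and 0, the median -0.46 and the background 13.2%. Between viruses 0 of 7 passed 2-fold at P1 or at P3, where 0.231% and 2.65% of all genes did, with member medians of 0.01 and 0.13. In polysome-seq 1 of 7 passed, against a background of 1.07%, and the median was 0.00 against 0.06 over all genes.

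Levels in polysome-seq and RNA-seq at P3 are set side by side only, since the libraries were counted in different ways and it is not stated that they came from the same cells. Cdk6 was number 10623 of 17919 genes in P3 control RNA-seq and number 1943 in the polysome library, and in Lin28a number 10265 and number 2804. Ccnd2 went from number 1534 to number 115 in control and from 1276 to 126 in Lin28a. Ccnd1 went from number 1478 to number 414 in control and from 2825 to 799 in Lin28a. Myc went from number 6435 to number 4453 in control and from 7801 to 4720 in Lin28a, and Cdk4 from 282 to 85 and from 205 to 75. These 5 members thus ranked higher in the polysome libraries of both cultures. Ranks are relative, and the share of all genes that ranked higher there was not taken, so this count has no background. Mycn ranked lower there in control, going from number 9865 to number 10527, and about the same in Lin28a, at 7645 and 7606. Ccnd3 had a lower rank in both, going from number 1643 to number 1970 in control and from 1937 to 2013 in Lin28a.

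The change of the polysome to RNA ratio, that is the polysome log2 ratio of Lin28a to control less that of P3 RNA-seq, was within 2-fold for the 5 members at 5 or more in all 4 libraries. It was 0.44 for Myc, 0.32 for Ccnd3, 0.25 for Ccnd1, 0.11 for Cdk4 and -0.14 for Ccnd2, against a median of 0.07 over 7817 genes, of which 0.409% were past 2-fold. Myc was number 815 from the highest. For Mycn and Cdk6, which were under 5 in a library, it was 0.23 and -0.54 when genes at 1 or more were let in.

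With passage the other genes of the Myc network had smaller ratios than Mycn. Of 20 measured in control, 1 was higher and 1 lower past 2-fold (median -0.35), and of 21 in Lin28a the counts were the same (median -0.25). Of all genes 19.6% and 13.2% were past 2-fold either way, so the share in the network was not above the background. The higher one in both was Mxd1, a Max partner that opposes Myc, with ratios of 1.15 and 1.11. Its relatives Mxd4 (0.94 and 0.91) and Mxi1 (0.84 and 0.87) were also higher, but Mxd3 was lower (-0.29 and -0.59). The lower one past 2-fold was Skp2, a ubiquitin ligase subunit, at -1.28 and -1.05. Mnt (-0.47 and -0.25) and Mga (-0.48 and -0.05) were lower by less. By any amount 15 of 20 network genes were lower in control and 13 of 21 in Lin28a, where 50.3% and 51.0% of all genes were. Max, named because it is the common partner, had ratios of -0.24 and -0.26. Mycl, the other Myc family gene, was at 32.8 FPKM in P1 control, 35.3 in P1 Lin28a, 26.8 in P3 control and 39.9 in P3 Lin28a, above Myc and Mycn in each. Polysome levels of Mycl were 9.83 RPKM in control and 21.0 in Lin28a, a ratio of 1.02. Of 20 network genes measured in polysome-seq Mycl was the 1 past 2-fold, where 1.07% of all genes were past it either way.

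Genes known to be activated by Myc, most of them for ribosome biogenesis, were lower with passage in 24 of 25 cases by any amount in each culture. Past 2-fold 6 were lower in control (median -0.79) and 10 in Lin28a (median -0.80), where 8.14% and 4.80% of all genes were. By any amount 50.3% of all genes were lower in control and 51.0% in Lin28a. Among the targets lower past 2-fold in both cultures were the nucleolar genes Nop58 (-1.47 in control and -1.25 in Lin28a), Nop56 (-1.14 and -1.33), Dkc1 (-1.36 and -1.35) and Ppan (-1.20 and -1.05). The exception was the serine pathway enzyme Shmt2, at 1.00 and 1.28. Between viruses 24 of 25 were higher by any amount in Lin28a at P1 and 18 of 25 at P3, with medians of 0.18 and 0.11 and none past 2-fold, where 48.4% and 48.5% of all genes were higher by any amount.

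Downstream of the D cyclins, E2F target genes of DNA replication were lower with passage in 20 of 20 cases in both cultures. By any amount 50.3% of all genes were lower in control and 51.0% in Lin28a. Past 2-fold 14 of the 20 were lower in control (median -1.21) and 17 in Lin28a (median -1.39), where 8.14% and 4.80% of all genes were. Among these targets were the replicative helicase genes Mcm2 (-1.61 and -1.55) and Mcm3 (-1.55 and -1.82) and the thymidylate synthase gene Tyms (-1.56 and -1.83). Of 21 genes of the Rb pathway and the G1 to S step, 4 were lower past 2-fold in each culture (medians -0.60 and -0.48), against the same shares of all genes. They included Ccne2, the cyclin that acts after the D cyclins (-1.60 and -2.28), and E2f1 (-1.39 and -1.74). Rb1 (0.30 and 0.54) and its relative Rbl2 (0.80 and 0.91) were slightly higher, while its other relative Rbl1 was lower (-0.88 and -0.71). Rb1 and its relatives were named after their values were seen. Between viruses, E2F targets were higher in Lin28a by any amount in 20 of 20 cases at P1 (median 0.35) and 15 of 20 at P3 (median 0.16), none past 2-fold. By any amount 48.4% of all genes were higher at P1 and 48.5% at P3.

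**Figure D4:**
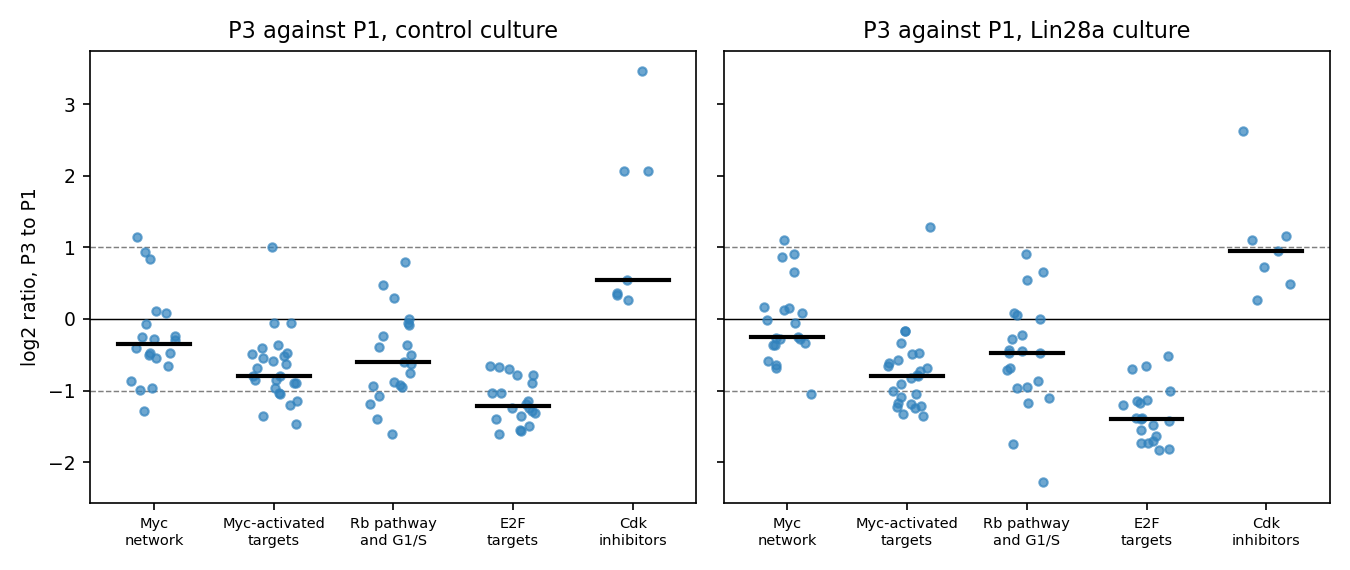
Log2 ratio of P3 to P1 for single genes (points) of 5 lists with the list median (bar), in control (left) and Lin28a (right), 1 library per group and a pseudocount of 1. E2F targets lie below 0 in both cultures with medians of -1.21 and -1.39, and all 7 Cdk inhibitors lie above 0.

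Cdk inhibitor genes were higher with passage, 7 of 7 by any amount and 3 past 2-fold in each culture. Of all genes 49.7% and 49.0% were higher by any amount and 11.5% and 8.38% past 2-fold. The 3 were not the same in each culture. Cdkn1a was past 2-fold only in control (2.07, with 0.95 in Lin28a) and Cdkn1c only in Lin28a (1.11, with 0.54 in control). The inhibitor of Cdk4 and Cdk6 with the largest ratio was Cdkn2b, at 3.46 in control and 2.62 in Lin28a. Its levels were 4.28 FPKM in P1 control, 3.04 in P1 Lin28a, 57.2 in P3 control and 23.8 in P3 Lin28a, which gave a Lin28a to control ratio of -1.23 at P3. Of the 7 inhibitors it was the only one past 2-fold between viruses at P3 in RNA-seq, where 2.65% of all genes were past it either way. At P1 that one was Cdkn1a, a p53 target, with 34.4 FPKM in control and 71.7 in Lin28a (1.04), and in polysome-seq it was Cdkn1c, an inhibitor found in cells leaving the cycle, with 6.43 and 14.1 RPKM (1.02). Among 17 genes of D cyclin turnover and related partners 2 were higher past 2-fold in control, Ccng1 (1.89) and Fbxo4 (1.13), and 1 in Lin28a, Ccng1 (1.50). None was lower past 2-fold in either culture, and the medians were 0.01 and 0.01.

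Of 22 genes that mark signals known to induce D cyclins and Mycn, 8 were lower past 2-fold with passage in control and 7 in Lin28a (medians -0.58 and -0.50), where 8.14% and 4.80% of all genes were. The receptor gene Fgfr3, at 1.38 in control, was the 1 gene of them higher past 2-fold there, and none was in Lin28a. The Wnt pathway factor Lef1 was at -3.48 and -2.31, and the Fgf feedback gene Dusp6 at -2.60 and -2.65. Between viruses at P3 Lef1 was past 2-fold in RNA-seq, at 1.32, and in polysome-seq, at 1.35. The Fgf-induced factor Etv4 was at 20.6 FPKM in P3 control and 9.95 in P3 Lin28a, a ratio of -0.98, with 17.7 and 15.6 at P1.

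Markers of other cell types moved with the same comparisons. The 8 neuronal markers summed to 892 FPKM in P1 control, 781 in P1 Lin28a, 196 in P3 control and 393 in P3 Lin28a. The 7 astrocyte markers summed to 341, 250, 4633 and 2105 FPKM in the same order, and the 7 oligodendrocyte markers to 82.0, 51.8, 1496 and 993. In polysome-seq the neuronal sum was 115 RPKM in control and 180 in Lin28a, and the astrocyte sum 252 and 179. With passage, and between viruses at P3, neuronal markers thus ran in the same direction as Mycn and astrocyte markers in the other. At P1 neuronal markers were slightly lower in Lin28a while Mycn was slightly higher. The 6 mesenchymal markers summed to 60.2 FPKM in P1 control, 50.3 in P1 Lin28a, 27.8 in P3 control and 33.6 in P3 Lin28a. In polysome-seq they summed to 10.7 RPKM in control and 17.7 in Lin28a. Their sum thus ran in the same direction as the neuronal sum. Single genes were split, since at P3 in RNA-seq 3 of 5 measured were higher in Lin28a and 2 lower. The part of these cells in the member values was not tested.

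Genes most like a member were sought among 7610 genes at 5 or more in all 6 libraries, by the distance between log2 profiles centred within each assay, for the 3 members that ranged over 1 log2 unit or more in RNA-seq. Nearest to Mycn were Cxadr, an adhesion receptor gene (distance 0.21), and Foxa1, a floor plate transcription factor gene (0.28). Foxa1 was at 42.7 FPKM in P1 control, 48.8 in P1 Lin28a, 7.75 in P3 control and 16.6 in P3 Lin28a, and at 9.78 and 21.7 RPKM in the polysome libraries. Nearest to Ccnd2 were Irf2bpl (0.25) and Mcm6, a replicative helicase gene (0.30). Nearest to Myc were Spry2, a feedback inhibitor of Fgf signalling (0.27), and the calcium channel subunit gene Cacnb1 (0.30). These are likenesses over 6 libraries with 1 per group, given as a description.

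The small RNA libraries give another readout of the same groups. The let-7 microRNAs, which are known to repress Myc family and D cyclin transcripts, share the seed GAGGUAG, bases 2 to 8, in all 9 guide strands counted. They are shown because Lin28a acts on their maturation. Sequences are from RefSeq (GRCm38.p6), with the seed in capitals.
let-7a-5p: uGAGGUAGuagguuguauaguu
let-7b-5p: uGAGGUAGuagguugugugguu
let-7c-5p: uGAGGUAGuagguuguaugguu
let-7d-5p: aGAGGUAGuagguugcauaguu
let-7e-5p: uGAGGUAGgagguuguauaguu
let-7f-5p: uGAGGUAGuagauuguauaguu
let-7g-5p: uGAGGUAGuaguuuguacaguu
let-7i-5p: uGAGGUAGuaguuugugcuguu
miR-98-5p: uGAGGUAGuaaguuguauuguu

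Summed let-7 and miR-98 counts were 55228 CPM, counts scaled to the total microRNA counts of a library, in P1 control, 45113 in P1 Lin28a, 125388 in P3 control and 29657 in P3 Lin28a. The sum was highest in P3 control and lowest in P3 Lin28a. Lin28a to control was 0.817 at P1 (95% interval 0.813 to 0.821) and 0.237 at P3 (0.235 to 0.238). From P1 to P3 the sum was 2.27 times as high in control (2.26 to 2.28) and 0.657 times in Lin28a (0.654 to 0.661). These exact conditional binomial intervals cover counting error only.

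The let-7 members were not alike. In P3 the Lin28a to control ratio ran from 0.0970 for miR-98 and 0.104 for let-7i to 0.509 for let-7c. Let-7c was the most abundant, with 13903 CPM in P1 control, 15171 in P1 Lin28a, 36399 in P3 control and 18518 in P3 Lin28a, so that in Lin28a it was slightly higher at P3. Let-7b was also higher at P3 in Lin28a, at 931 against 500 CPM, while the other 7 were lower.

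**Figure D5:**
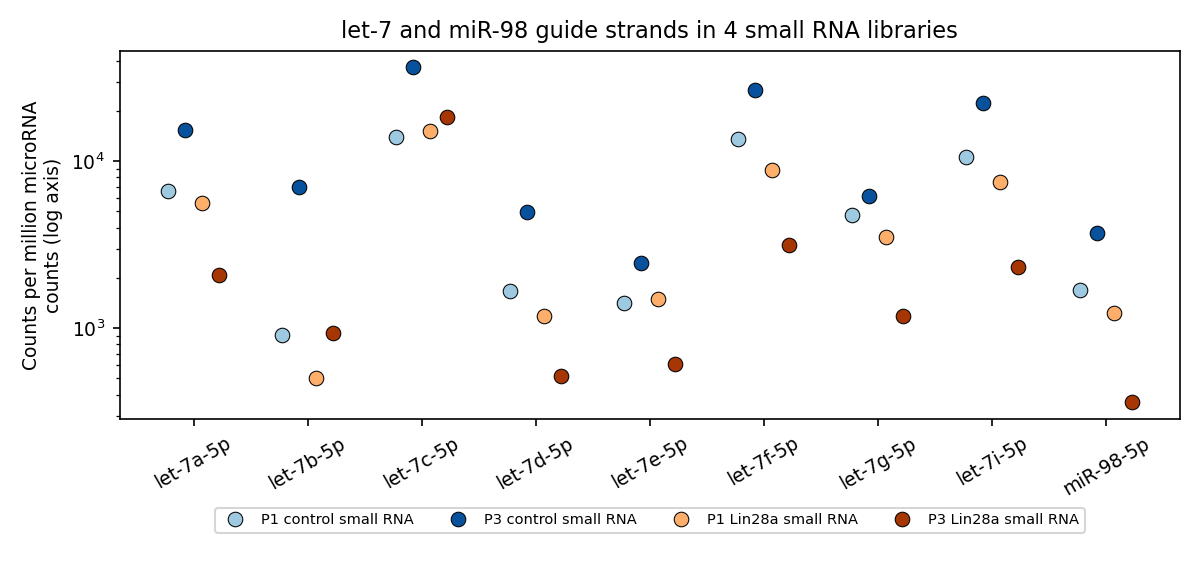
Counts of the guide strands of let-7 and miR-98, scaled to all microRNA counts of the library (CPM), in the 4 small RNA libraries, on a log axis, 1 library per point. P3 control is the highest point and, apart from let-7b and let-7c, P3 Lin28a the lowest for each microRNA.

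Other microRNAs known to bind transcripts of the members differed in their own ways. The miR-34 family, known to repress Myc genes, Ccnd1, Cdk4 and Cdk6, summed to 3518 CPM in P1 control, 4078 in P1 Lin28a, 8020 in P3 control and 5582 in P3 Lin28a, most of it miR-34c. The miR-29 family, known to repress Cdk6, summed to 345, 456, 1652 and 844 CPM in the same order. Like let-7 they were highest in P3 control, but in Lin28a they were higher at P3 than at P1. The miR-16 family, known to repress D cyclins, summed to 39634 CPM in P1 control, 40569 in P1 Lin28a, 28525 in P3 control and 42675 in P3 Lin28a. This sum, most of it miR-16, was lowest in P3 control. Its members were not alike: miR-195a was highest in P3 control, at 265, 325, 901 and 369 CPM in the same order. For miR-497 the values were 330, 298, 322 and 381 CPM. The neuronal miR-124, known to repress Cdk6, was at 648, 895, 70.5 and 214 CPM. The family of miR-17, which Myc is known to induce, stayed between 8771 and 10197 CPM. miR-206 was seen at 1 count or none in each library.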

How the data were processed

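Gene levels came from 4 RNA-seq and 2 polysome libraries and microRNA counts from 4 small RNA libraries, with groups taken from the sample titles and 1 library in each. The RNA-seq values were deposited by the authors as 1 FPKM value per RefSeq gene. The build mm9 and the tools Cufflinks 2.1.1, TopHat2 2.0.6 and Bowtie 1.0.0 are named for all libraries per the submitters' processing notes, with no role for each tool. The headers name no unit: FPKM was taken from Cufflinks and the values, which have a floor of 4.8e-07. The polysome values deposited by the authors are read as RPKM, since low genes step in whole reads, with floors of 0.00204 in control and 0.00331 in Lin28a. Which gradient fractions were sequenced is not stated. The labels call these libraries poly(A)-selected, while the protocol names a total RNA kit. MicroRNA read counts on the mature strand were deposited by the authors without normalization, per the file headers, and reads of a microRNA with several loci may count repeatedly. The counts on primary hairpins were not used.

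A gene was measured where either library compared had a value of 1 or more, and log2 ratios used a pseudocount of 1. The polysome to RNA ratio used genes at 5 or more in all 4 libraries. The ratio code was tested on simulated data. MicroRNA counts were scaled to the library total of 6322534 to 8542827 counts. No value has a replicate. Columns of other samples numbered 0. The members, gene lists and alternatives were chosen with earlier results of these data known. Genes named are the members, in general up to 4 genes per list with the largest ratios, the 2 genes nearest to a member in profile, and microRNA families with known sites. One gene that this rule names is not reported here. RefSeq sequences are of GRCm38.p6, another build than mm9, and were used for promoter and microRNA letters only. Software was Python 3.11.15 with pandas 2.3.3, numpy 2.4.6, matplotlib 3.10.9 and scipy 1.17.1.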

Additional observations from a re-analysis of the deposited data

Results flagged for a closer look

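Some members had log2 ratios of opposite sign in the cultures or passages compared, with 1 library per group, so the differences between groups were not tested. Ccnd1 differed most: its P3 to P1 ratio was 0.48 in control and -0.46 in Lin28a, and its Lin28a to control ratio was 0.01 at P1 and -0.93 at P3. Cdk6, at 3.10 to 3.68 FPKM in RNA-seq, had P3 to P1 ratios of -0.16 in control and 0.12 in Lin28a, and Lin28a to control ratios of -0.09 at P1 and 0.19 at P3. Ccnd2 was at -0.05 at P1 and 0.13 at P3 for Lin28a to control. Ccnd3 was at 0.16 at P1 and -0.28 at P3. Ratios of this size for Cdk6, Ccnd2 and Ccnd3 lie within the middle 90% of all measured genes in these comparisons. So do the P3 to P1 ratios of Ccnd1 in both cultures and its Lin28a to control ratio at P1. Of the ratios in this paragraph only that of Ccnd1 at P3, -0.93, lies outside. Passage and virus ratios of a gene come from the same libraries and are not independent.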

How the results depend on the processing

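No paired analysis was possible because each group holds 1 library, and no library could be left out for the same reason. Member ratios were also taken under other settings (pseudocount of 0.1, other filters, centring on the median, a common upper quartile). A filter chooses which genes are counted and cannot change the ratio of a member, so the filter settings were bound to give the same value. Of the 200 ratios, filter settings included, 197 kept their direction and their side of the 2-fold line. Of those past 2-fold, 0 changed direction. Of the 3 others, Mycn for Lin28a to control at P3 was at 1.07 with a pseudocount of 0.1, which makes 1 member past 2-fold there in place of 0, and Ccnd3 in polysome-seq was at -0.02 with centring and with a common upper quartile. Counts over all genes depended on the pseudocount of 0.1: Lin28a against control had 43 higher and 46 lower at P1, 343 and 333 at P3, and 249 and 61 in polysome-seq, the Lin28a culture had 966 lower with passage, and the difference between passage changes had 533 higher and 281 lower. With genes at 5 or more the higher counts were 9 at P1 and 108 at P3. For the polysome to RNA ratio 11 genes were lower with a pseudocount of 0.1 and 13 with centring, and with genes at 1 or more 68 were higher and 13 lower. The summed let-7 ratio of Lin28a to control was 0.734 at P1 and 0.232 at P3 when scaled by the median ratio, and 0.808 and 0.213 with let-7 left out of the total. From P1 to P3 it was 2.30 and 2.45 in control and 0.712 and 0.647 in Lin28a under the same settings. The cause of these shifts was not tested. Members under 5, Mycn in P3 control and Cdk6, are those in which the pseudocount weighs most, and the depth behind gene values is unknown.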
